A study of Arabidopsis thaliana with 18 samples.

Results

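Seedlings of Arabidopsis thaliana that overexpressed LBD37 were compared directly with seedlings that overexpressed its paralog LBD38, to see which transcripts separate the lines and which do not. The samples were chosen by their titles: 3 arrays of the LBD37 overexpresser and 3 of the LBD38 overexpresser, 6 of the 18 Affymetrix ATH1 arrays in the series. All 18 arrays, in 6 groups of 3, were hybridised with RNA from whole Col-0 seedlings aged 9 days. Both overexpressers, and the wild type used as their control, were grown for 7 days with 4 mM KNO3 and for the last 2 days without added nitrogen. The remaining groups stayed on 4 mM KNO3 for all 9 days and were wild type, a T-DNA insertion mutant of LBD37 (lbd37) and one of LBD38 (lbd38). The sources used here do not give the promoter of either transgene or the number of independent transgenic lines. An effect of the overexpressed gene therefore cannot be told apart from an effect of the line that carries it. The replicates are labelled biological, with no word on what was repeated, so a p-value here reflects no more than the spread among these arrays, and 3 arrays a group limit the precision.

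LBD37 and LBD38 encode plant-specific transcription factors with a LATERAL ORGAN BOUNDARIES (LOB) domain, which binds DNA. In Arabidopsis both, with their close relative LBD39, are known as repressors of anthocyanin synthesis and of genes that respond to nitrate. Nitrate itself induces them. The annotation used here lists no probe set with LBD37 or LBD38, so the targeted transcripts could not be found by name to check the labels. Of the family, LBD16 and LBD29, known for their part in lateral root initiation, were measured. LBD16 was at 6.17 ± 0.24 in the LBD37 overexpresser and 6.07 ± 0.10 in the LBD38 overexpresser (log2 signal, mean ± SD, n = 3), and LBD29 at 5.73 ± 0.21 and 5.68 ± 0.05. Neither passed the test between the lines or against wild type.

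The transcript profiles of the lines lay about as close to each other as replicates of 1 line did, apart from 1 array. Between the lines, pairs of arrays without replicate 3 of the LBD37 overexpresser differed by a median of 0.0913 to 0.124 per probe set (absolute difference, log2). Replicates of the LBD38 overexpresser differed by 0.0840 to 0.117, and replicates 1 and 2 of the LBD37 overexpresser by 0.110. Replicate 3 of the LBD37 overexpresser stood apart from its own replicates, by 0.199 and 0.206, and from the LBD38 arrays, by 0.211 to 0.237. Its interquartile range was 2.89 against 3.06 to 3.28 on the other arrays of the series, and it alone lay far out on the first principal component of the 6 arrays, at 41.1 against -14.4 to 0.97. Where stated below, results are also given without this array. The 25S ribosomal RNA control, which was not among the probe sets tested, was higher on each LBD37 array (10.40 to 11.19) than on each LBD38 array (9.33 to 10.06). That difference of 1.12 had p = 0.1 in an exact two-sided permutation test, the smallest p that 3 against 3 arrays allow, and its part in the results below was not tested.

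**Figure D1:**
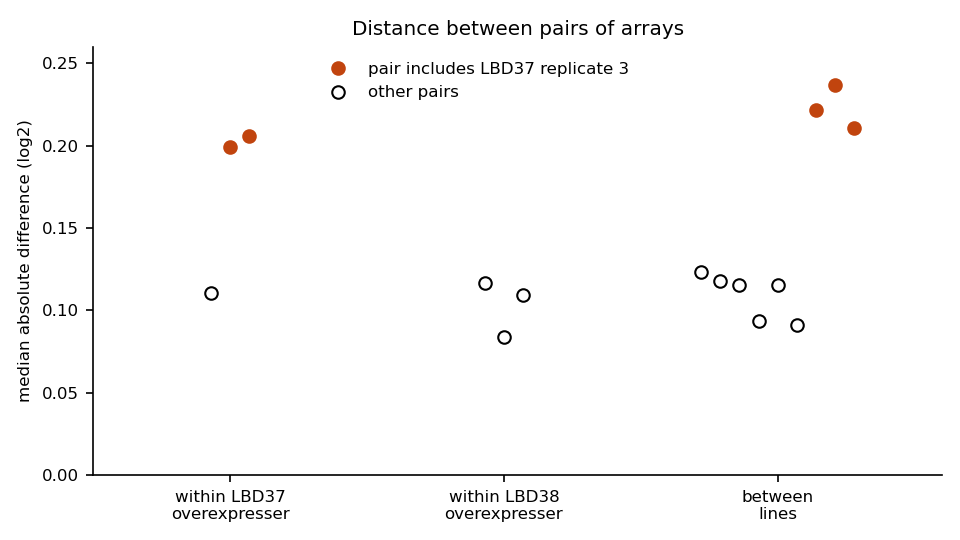
Median absolute difference over 22746 probe sets (log2, vertical axis) for each pair of arrays, within the LBD37 overexpresser, within the LBD38 overexpresser and between the lines. Filled points are pairs that include LBD37 replicate 3, and these lie at 0.199 to 0.237, while all other pairs lie at or below 0.124.

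Few transcripts separated the lines. In a limma fit over all 18 arrays, 11 of 22746 probe sets (0.0484%) differed at an adjusted p under 0.05, after Benjamini-Hochberg adjustment. Of these, 2 were higher with LBD37 than with LBD38 (0.00879%) and 9 lower (0.0396%), and 8 differed by at least 2-fold. At an unadjusted p under 0.05 there were 3151 (13.9%), of which 1261 were higher (5.54%) and 1890 lower (8.31%) with LBD37. Without replicate 3 of the LBD37 overexpresser there were 1421. On 3358 probe sets (14.8%) the arrays of the lines did not overlap. The median difference, LBD37 minus LBD38, was -0.02 on the log2 scale, and 0.006 without that replicate.

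The count moved most when 1 array was left out. Without replicate 2 of the LBD37 overexpresser, 741 of 22746 probe sets passed, 191 higher and 550 lower with LBD37. That refit rests on LBD37 replicates 1 and 3, so the outlying replicate 3 counts for more in the LBD37 mean. Array weights, a relative rating of each array by its fit, were 1.46, 0.73 and 0.17 for LBD37 replicates 1, 2 and 3. Leaving out replicate 1 or replicate 3 of the same line gave 9 and 14, and leaving out replicate 1, 2 or 3 of the LBD38 overexpresser gave 20, 14 and 8. Without LBD37 replicate 3 the calls were 7 higher and 7 lower with LBD37, and with array weights 18 higher and 15 lower. Which direction held more calls was therefore not settled. At 734 of the 741 (99.1%), replicate 2 lay nearer to the LBD38 arrays than the mean of the other LBD37 replicates did. The median size of their difference between the lines was 0.52 without that array and 0.37 with it, and 28 of them differed by 2-fold or more without it. These probe sets were picked by the setting in which they passed, so the values describe them and test nothing.

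**Figure D2:**
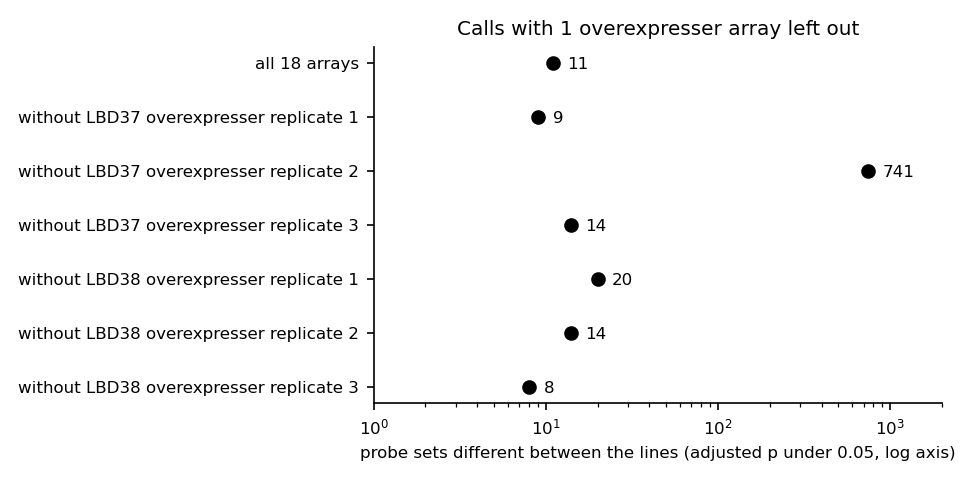
Number of probe sets that differed between the lines at an adjusted p under 0.05 (horizontal log axis) with all arrays and with each array of the overexpressers left out. All arrays gave 11, leaving out LBD37 replicate 2 gave 741, and leaving out each of the other 5 gave 8 to 20.

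The largest differences were those of probe sets 252220_at and 246996_at, for which the annotation used here lists no gene. Each stood far above wild type in 1 line only. Whether they report the overexpressed genes themselves was not tested, so they cannot be counted as downstream differences. Probe set 252220_at read 5.76, 6.29 and 6.47 on the LBD37 arrays and 13.06, 12.93 and 12.96 on the LBD38 arrays, with 7.27 ± 0.09 in depleted wild type. It was near the top of the signal range with LBD38 and below wild type with LBD37. The difference was 112-fold (log2 -6.81, 95% interval -7.09 to -6.53, limma adjusted p = 1.81e-16). Against wild type it was 52.6-fold higher in the LBD38 overexpresser and 2.13-fold lower in the LBD37 overexpresser (limma adjusted p = 1.72e-05). Probe set 246996_at was its mirror image, with 12.90, 13.15 and 13.36 on the LBD37 arrays and 6.86, 7.01 and 7.37 on the LBD38 arrays, against 8.0 ± 0.16 in wild type. It was 66.5-fold higher with LBD37 than with LBD38 (log2 6.06, 5.76 to 6.35, limma adjusted p = 1.32e-15), 35.1-fold above wild type with LBD37 and 1.89-fold below it with LBD38 (limma adjusted p = 0.000127). In wild type itself 252220_at fell by 1.90 and 246996_at fell by 1.19 on the log2 scale with nitrogen depletion.

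A few transcripts changed with LBD37 and stayed near wild type with LBD38. AT3G03920 encodes a GAR1-type subunit of the box H/ACA ribonucleoproteins, which guide pseudouridylation of RNA. It read 11.88, 11.90 and 11.77 with LBD37 and 9.98, 10.30 and 10.08 with LBD38, against 10.14 ± 0.05 in wild type. All LBD37 arrays lay clear above the rest. The difference was 3.32-fold (log2 1.73, 1.53 to 1.93, limma adjusted p = 3.57e-09), and the LBD38 overexpresser differed from wild type by -0.02 (adjusted p = 0.934). The other measured genes for such particles did not follow it: AT5G18180, another GAR1-type gene, differed by 0.07 (-0.15 to 0.29) and AT5G08180, of the NHP2 type, by -0.01 (-0.23 to 0.20), and neither passed.

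Among the probe sets lower with LBD37, 259346_at, with no listed gene, read 7.17, 6.23 and 6.38 with LBD37 and 9.15, 9.15 and 9.10 with LBD38. Wild type was at 8.79 ± 0.17, close to the LBD38 arrays. The difference was 5.81-fold (log2 -2.54, -2.90 to -2.18, limma adjusted p = 6.95e-08), and nitrogen depletion raised the same probe set 6.57-fold in wild type. Its identifier comes directly before that of the AT3G03920 probe set, 259347_at, which also changed with LBD37 only. Whether their targets are neighbours in the genome was not tested. AT2G44970 read 6.91, 6.64 and 6.41 with LBD37 and 8.26, 8.37 and 8.33 with LBD38, against 8.60 ± 0.04 in wild type. It was 3.86-fold below wild type with LBD37 and 1.22-fold below with LBD38 (limma adjusted p = 0.049), so that both lines passed and the lines differed by 3.18-fold (limma adjusted p = 5.11e-09).

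AT2G33850 read 7.56, 8.13 and 6.96 with LBD37 and 8.67, 9.00 and 8.90 with LBD38, against 8.97 ± 0.22 in wild type. Its LBD37 arrays spread over more than 1 log2 unit, with all of them below the LBD38 arrays. The lines differed by 2.48-fold (log2 -1.31, -1.75 to -0.87, limma adjusted p = 0.017). This call was lost without LBD37 replicate 1, without LBD38 replicate 2, without LBD38 replicate 3 and with only the compared groups in the fit. Probe set 266795_at, with no listed gene, read 6.63, 6.59 and 6.46 with LBD37 and 7.10, 7.17 and 6.98 with LBD38, a 1.44-fold difference (limma adjusted p = 0.0329). This call was lost in 10 refits, among them those without LBD37 replicate 1, without LBD37 replicate 3 and without each LBD38 array in turn.

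Other transcripts changed with LBD38 and stayed near wild type with LBD37. AT1G59265, annotated as a pseudogene, read 4.62, 4.44 and 4.45 with LBD37 and 6.15, 6.17 and 6.24 with LBD38, against 4.43 ± 0.07 in wild type. The LBD37 arrays lay below their own lower quartile of signal. No detection calls were used here, so those levels are not shown to be above background, and the fold is that of the signals. The signals differed by 3.21-fold (log2 -1.68, -1.89 to -1.48, limma adjusted p = 5.11e-09), and this type of probe set can match more than 1 transcript. AT1G04780 read 8.82, 8.91 and 8.87 with LBD37 and 9.99, 10.09 and 9.72 with LBD38, against 8.97 ± 0.08 in wild type. All LBD38 arrays lay above all others, by 2.1-fold on average over the LBD37 overexpresser (log2 -1.07, -1.27 to -0.86, limma adjusted p = 6.99e-06).

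The last pair of transcripts had signals below wild type in both lines, and lower with LBD37 than with LBD38. SCPL27, a serine carboxypeptidase-like gene (AT3G07990), read 6.51, 6.62 and 6.51 with LBD37, 7.05, 7.16 and 7.23 with LBD38 and 7.73 ± 0.09 in wild type. The groups formed steps without overlap, 2.28-fold below wild type with LBD37 and 1.5-fold below with LBD38, and the step between the lines was 1.52-fold (limma adjusted p = 0.00249). AT2G47010 read 4.77, 5.26 and 4.75 with LBD37, 5.47, 5.63 and 5.75 with LBD38 and 6.48 ± 0.05 in wild type, a 1.61-fold difference in signal between the lines (limma adjusted p = 0.0174). LBD37 replicates 1 and 3 lay below their own lower quartile there, so the same limit applies. That call was lost without LBD37 replicate 1 or 3, without LBD38 replicate 2 or 3, and with only the compared groups in the fit, the setting that also ended the SCPL27 call. Over 17 refits, 7 of the 11 probe sets passed wherever they were tested. These were 252220_at, 246996_at, 259346_at, AT3G03920, AT2G44970, AT1G59265 and AT1G04780.

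**Figure D3:**
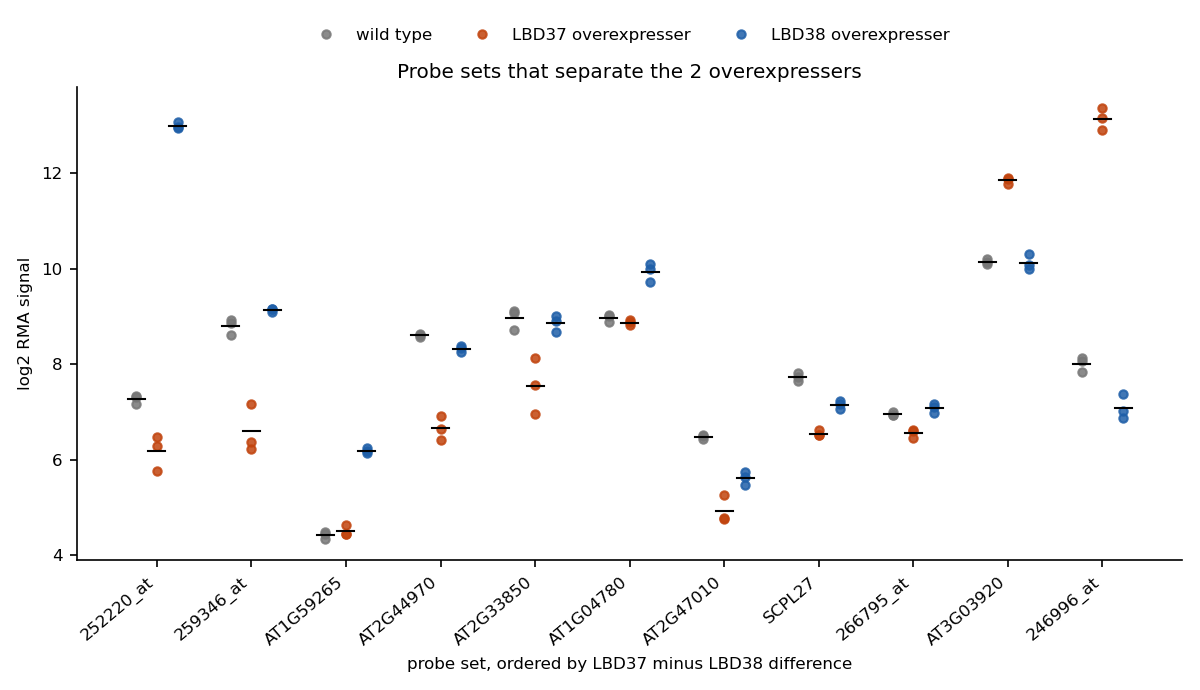
log2 RMA signal (vertical axis) of each of the 3 arrays of depleted wild type, the LBD37 overexpresser and the LBD38 overexpresser for the 11 probe sets that separated the lines, ordered by the LBD37 minus LBD38 difference. The difference runs from -6.81 for 252220_at to 6.06 for 246996_at, and the arrays of the lines overlap for none of the 11. Of all probe sets 14.8% do not overlap, and these 11 were picked by the same comparison, so that separation is no further result.

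The loss-of-function mutants gave a further view of the same probe sets, on arrays of other groups. Of the 11, 252220_at was the only one that passed against replete wild type, lower in lbd38 with a log2 difference of -0.71 (limma adjusted p = 0.0103). Of all probe sets 1.19% passed in lbd38 and 0.189% in lbd37. It read 8.55, 8.40 and 8.42 in lbd38, 9.60, 9.78 and 9.41 in lbd37 and 9.13, 9.13 and 9.25 in replete wild type. The lbd38 arrays were the lowest and the lbd37 arrays the highest, though the lbd37 difference of 0.43 did not pass (limma adjusted p = 0.359). The mutants differed from each other at 591 probe sets (2.6%), which included 252220_at (lbd37 minus lbd38 1.14, limma adjusted p = 9.9e-05) and 246996_at (-0.53, adjusted p = 0.0493). Probe set 246996_at read 8.80, 9.09 and 8.73 in lbd37 and 9.38, 9.37 and 9.44 in lbd38, with no overlap. The other 9 gave mutant differences between -0.21 and 0.08, and none passed.

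Below the threshold, the largest upward difference with LBD37 among the genes named was that of PDF1.2. PDF1.2, a plant defensin induced by jasmonate and ethylene (AT5G44420), read 9.41, 7.94 and 8.41 with LBD37 and 7.15, 7.34 and 5.79 with LBD38, against 5.39 ± 0.22 in wild type. All LBD37 arrays were above all LBD38 arrays, and both lines were above wild type. The rule that named uncalled genes asked for arrays without overlap, which 14.8% of all probe sets had, so that separation is no result. The difference was 1.82 on the log2 scale, with an interval of 0.93 to 2.71, but it did not pass (limma adjusted p = 0.227). Its close copy PDF1.2b (AT2G26020), on a probe set that may share targets with it, differed by 1.05 (0.19 to 1.91). COR15A, a cold-regulated chloroplast protein gene, differed by 0.76 (0.39 to 1.13, limma adjusted p = 0.227). It passed without LBD37 replicate 3, with 1.01, and with array weights, with 0.99. The 8 uncalled genes named in this direction ran from 0.74 to 1.82, with adjusted p from 0.227 to 0.303.

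In the other direction the named uncalled genes ran from -1.14 to -0.67, with limma adjusted p from 0.151 to 0.295. AT3G15310, annotated as a pseudogene, was at 5.75 ± 0.69 with LBD37 and 6.89 ± 0.18 with LBD38, against 5.20 ± 0.11 in wild type (difference -1.14, -1.66 to -0.62). IQD24, of the IQ-domain family of calmodulin-binding proteins, was at 6.93 ± 0.38 and 7.60 ± 0.11, against 8.12 ± 0.06 in wild type. It had the lowest adjusted p of the group, 0.151 by limma, for a difference of -0.68. AT3G15310, IQD24, AT4G24700, AT2G19650 and AT5G44400 passed without LBD37 replicate 2, as did PDF1.2, AT4G12500 and AT1G56060 among the genes with upward differences. In that refit 741 of 22746 probe sets passed, which applies also to each gene given below for it. The genes here were picked for a large difference, so passing there is no added support. In all, 12 probe sets differed by 2-fold or more between the lines without passing, 7 higher and 5 lower with LBD37.

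Far more probe sets passed for the average of the lines than for their difference. The mean of the overexpressers against depleted wild type is orthogonal to the difference between the lines. By it 4796 probe sets passed (21.1%), 2132 higher (9.37%) and 2664 lower (11.7%) than in wild type. With 1 array left out the count ran from 3362, without wild-type replicate 1, to 5551, without LBD37 replicate 3. The split was 2945 higher and 2606 lower without LBD37 replicate 3, 2629 and 2459 when quantile normalization was repeated, and 3157 and 3055 with array weights, so which direction held more calls was not settled. At 383 of them the averaged change was at least 2-fold, 61 higher and 322 lower. For 326 of the 383 the 95% interval of the difference between the lines lay within 2-fold in either direction, comprising 279 of the 322 lowered (86.6%) and 47 of the 61 raised (77%). Over all probe sets this share was 99.2%, at a median half-width of the interval of 0.211. The interval lay within 1.5-fold for 160 of the lowered (49.7%) and 27 of the raised (44.3%), so a difference of that size was not bounded for the others. Of the 383, 4 passed between the lines. The 2 of these among the 61 raised were 252220_at and 246996_at. Each was far above wild type in 1 line and below it in the other. Their averaged change is therefore not one that the lines share. Both count in the 61 and neither in the 47.

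The median sizes of the changes were close in the lines. The 322 lowered probe sets had median changes against wild type of -1.32 with LBD37 and -1.30 with LBD38, and a median difference between the lines of -0.05. By array, their median distance from the wild-type mean was -1.38, -1.32 and -1.37 with LBD37 and -1.68, -1.13 and -1.15 with LBD38. The 3 LBD37 arrays lay inside the range of the LBD38 arrays. The 61 raised probe sets had medians of 1.27 and 1.25, with -0.02 between the lines. Against wild type singly, 4203 probe sets passed with LBD37 (18.5%) and 4076 with LBD38 (17.9%). These comparisons share the 3 wild-type arrays, so their resemblance is not a result. Of the calls with LBD38, 2107 were higher (9.26%) and 1969 lower (8.66%). Of those with LBD37, 1639 were higher (7.21%) and 2564 lower (11.3%), a split that became 2241 and 2195 when each array was centred on its median and 2116 and 2130 when quantile normalization was repeated. Without LBD37 replicate 3 the split was 1973 higher and 1902 lower.

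**Figure D4:**
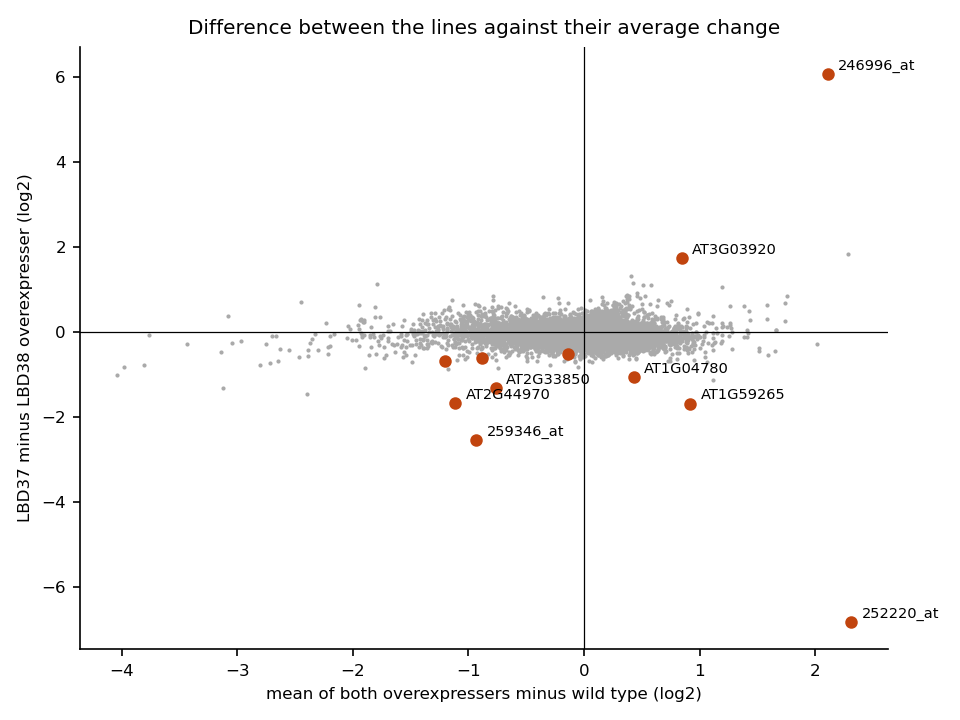
Difference between the lines (LBD37 minus LBD38, log2, vertical axis) against the mean change of both overexpressers from depleted wild type (log2, horizontal axis), 1 point per probe set. The 11 probe sets that passed between the lines are marked, and most of the 383 with an averaged change of 2-fold or more lie near 0 on the vertical axis.

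The genes with the largest averaged fall included NRT2.5, APL3 and cwINV6. Genes were named for an averaged change only where all arrays of both lines lay on the same side of all wild-type arrays. That separation from wild type is therefore no result, and genes on which the lines went opposite ways were left out. NRT2.5, a high-affinity nitrate transporter that wild type uses under long nitrogen starvation (AT1G12940), read 6.95, 6.77 and 7.59 with LBD37, 6.25, 6.80 and 7.16 with LBD38 and 9.99, 9.92 and 10.10 in wild type. The arrays of the lines overlapped, and all 6 lay far below wild type. The difference between the lines was 0.36 (-0.07 to 0.80, limma adjusted p = 0.419). APL3, which encodes a subunit of the starch-synthesis enzyme ADP-glucose pyrophosphorylase (AT4G39210), was at 6.32 ± 0.37 with LBD37 and 6.43 ± 0.76 with LBD38, against 9.07 ± 0.06 in wild type. The lines differed by -0.10 (-0.62 to 0.41). The fructan hydrolase gene cwINV6 (AT5G11920) was at 6.74 ± 0.26 and 6.89 ± 0.60, against 9.17 ± 0.07, and the lines differed by -0.15 (-0.58 to 0.27).

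Of the 12 genes named for the largest averaged fall, none passed between the lines, 7 had intervals within 2-fold and 11 had the lower mean with LBD37. Of all probe sets 56.1% had the lower mean with LBD37. Their differences ran from -0.79 to 0.36. For the 5 others a difference of 2-fold was not bounded, and they included AT1G22160, which read 5.33, 5.40 and 4.92 with LBD37 and 5.52, 5.44 and 7.06 with LBD38. Here LBD38 replicate 3 alone was high, and the interval was -1.40 to -0.18. AT2G47880, a CC-type glutaredoxin, had the same layout, with 7.69, 7.24 and 7.57 against 7.79, 7.62 and 9.28, and wild type at 10.58 ± 0.08. LBD38 replicate 3 was again the highest of the 6 arrays and below wild type. The difference of -0.73 had an interval of -1.30 to -0.16 (limma adjusted p = 0.295).

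Of the 12 genes named for the largest averaged rise, none passed between the lines, 9 had intervals within 2-fold, and 6 had the higher mean with each line. They were named by the same rule, which left out genes on which the lines went opposite ways. SPCH, the basic helix-loop-helix factor that starts the stomatal lineage (AT5G53210), read 6.95, 6.77 and 7.17 with LBD37, 7.02, 7.34 and 6.86 with LBD38 and 5.23, 5.58 and 6.03 in wild type. The lines interleaved, with a difference of -0.11 (-0.46 to 0.23). GIS, a zinc finger factor of trichome formation (AT3G58070), was at 7.29 ± 0.47 and 7.41 ± 0.28, against 5.96 ± 0.13, with the same difference of -0.11 (-0.47 to 0.24). MSRB6, a methionine sulfoxide reductase (AT4G04840), was at 8.33 ± 0.49 and 8.87 ± 0.30, against 7.01 ± 0.16, and the beta-expansin EXPB3 (AT4G28250) was at 8.74 ± 0.28 and 9.13 ± 0.11, against 7.65 ± 0.18. For both of these the interval lay below 0, at -0.98 to -0.09 and -0.65 to -0.14, while the adjusted p by limma was 0.305 and 0.271. MSRB6 passed without LBD37 replicate 2, with -0.81, as did AT4G21870, another of the 12, with -0.50.

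**Figure D5:**
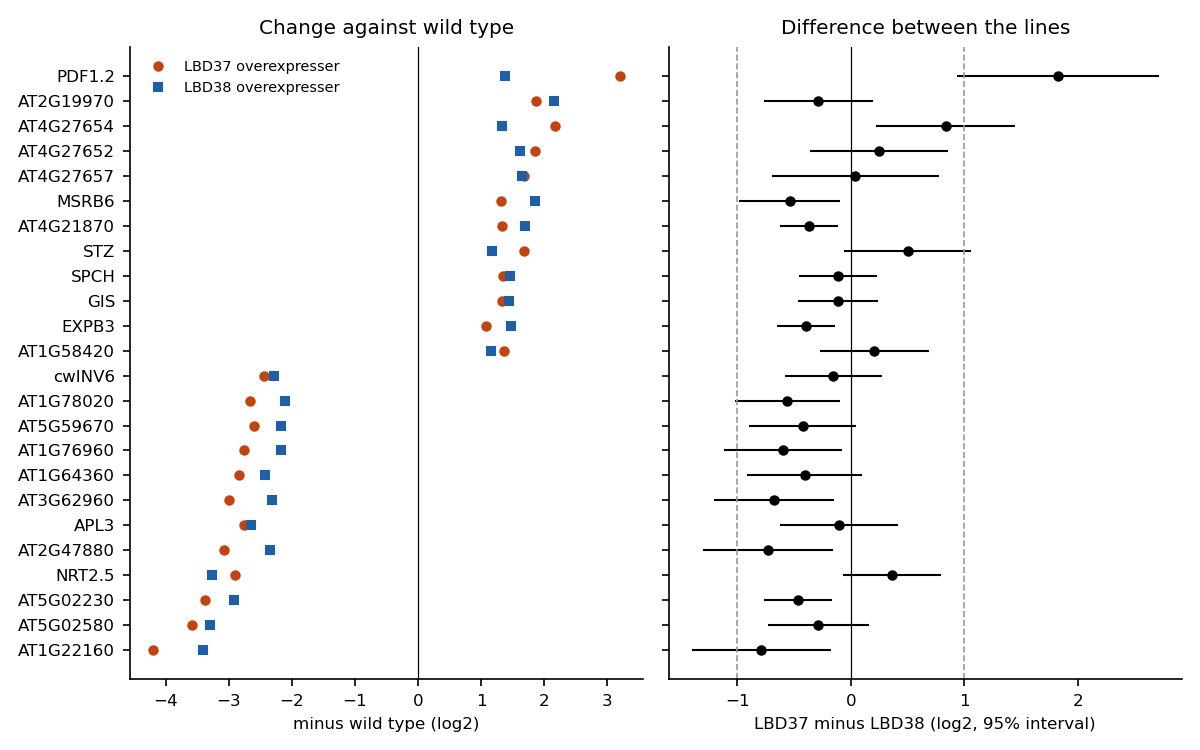
Left, change against depleted wild type (log2) in each overexpresser for the 24 genes named for the largest averaged change. Right, the difference between the lines (LBD37 minus LBD38, log2) with its 95% interval, where 16 of the 24 intervals lie within 2-fold and the others reach past it. Genes were named only where all arrays of both lines lay on the same side of all wild-type arrays.

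Nitrogen-responsive genes were followed as a class picked in wild type alone, with no overexpresser array. Depletion changed 11412 probe sets (50.2%), and 222 rose at least 4-fold. On the wild-type arrays these 222 stood a median of 2.42 to 2.57 above replete wild type. With LBD37 the medians by array were 1.53, 1.56 and 1.69, and with LBD38 1.11, 1.75 and 1.57. Both lines were below depleted wild type on every array, and the LBD37 arrays lay inside the span of the LBD38 arrays. The same depleted wild-type arrays had picked these probe sets, and also those lowered by depletion. Part of a gap to those arrays is therefore built in, and it is not read as a result. The median difference between the lines was 0.12, and 1 of the 222 passed, 259346_at, beside 0.0484% of all probe sets. The 124 probe sets lowered at least 4-fold by depletion had medians of -2.45 to -2.28 in wild type, -2.0, -1.92 and -2.29 with LBD37 and -1.85, -2.0 and -2.13 with LBD38, and none of them passed between the lines. Among genes changed at least 4-fold by depletion, the largest uncalled differences were those of AT1G66090, AT1G21520 and AT1G57630 upward with LBD37 (0.84, 0.74 and 0.62) and of AT1G22160 and AT5G38910 downward (-0.79 and -0.78). AT5G38910 read 6.13, 6.20 and 6.31 with LBD37 and 5.90, 5.93 and 9.15 with LBD38, against 9.41 ± 0.46 in depleted wild type. LBD38 replicate 3 alone stood near wild type there, and the interval ran from -1.91 to 0.35.

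Lists of genes by role held 188 measured members. Between the lines 1 of these passed, AT3G03920, beside 0.0484% of all probe sets. For 175 the interval lay within 2-fold and for 158 it held 0. Over all probe sets the interval lay within 2-fold for 22568 of 22746 (99.2%). The means were lower with LBD37 for 119 members and higher for 69, while over all probe sets 12755 were lower with LBD37 (56.1%). The lists for nitrate reduction, heat stress and phosphate starvation had no measured gene.

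For nitrate transport and its regulators, 3 of 21 and 4 of 17 listed genes were measured, and none passed between the lines. Beside NRT2.5 the transport list held AT2G26690, the nitrate transporter NRT1.4, with a difference of -0.10 (-0.40 to 0.20), and AT4G24730, with 0.06 (-0.11 to 0.22). The regulators were 3 HHO factors, GARP-type repressors of nitrate transport genes, and NRG2 (AT3G60320), with -0.06 (-0.23 to 0.12). HHO1 (AT3G25790) was at 4.64 ± 0.21 with LBD37 and 4.75 ± 0.23 with LBD38, against 5.65 ± 0.19 in wild type. HHO2 (AT1G68670) was at 5.72 ± 0.03 and 5.98 ± 0.19, against 6.55 ± 0.22, and HHO3 (AT1G25550) at 6.69 ± 0.16 and 6.73 ± 0.14, against 7.45 ± 0.12. All of these HHO genes passed as lower than wild type in each line, where 11.3% of all probe sets did with LBD37 and 8.66% with LBD38. Their differences between the lines ran from -0.26 to -0.05, with each interval within 2-fold, as for 99.2% of all probe sets.

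Anthocyanin synthesis, the process for which these factors are best known, had 5 measured genes of 20 listed. All 5 passed as lower than depleted wild type with LBD37 and 4 with LBD38, where 11.3% and 8.66% of all probe sets did. The exception was UGT78D2, a flavonoid 3-O-glucosyltransferase (AT5G17050), at 10.13 ± 0.32 with LBD37, 10.39 ± 0.09 with LBD38 and 10.52 ± 0.05 in wild type. DFR, the dihydroflavonol reductase at the entry to the anthocyanin branch (AT5G42800), read 11.18, 11.07 and 10.53 with LBD37 and 10.89, 11.18 and 11.53 with LBD38, against 12.17 ± 0.08 in wild type. The glucosyltransferase gene AT4G14090 read 8.98, 8.96 and 8.18 with LBD37 and 8.79, 9.10 and 9.32 with LBD38, against 10.73 ± 0.13. For both genes LBD37 replicate 3 was the lowest array and the lines overlapped. The median difference of the 5 genes was -0.27, and -0.09 without LBD37 replicate 3. None passed, UGT78D2 included (limma adjusted p = 0.376), and all 5 intervals lay within 2-fold, as for 99.2% of all probe sets. Of other flavonoid genes, 3 measured of 12 listed had differences of -0.31 to -0.01, and none passed.

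Of 20 listed CC-type glutaredoxins, small redox proteins many of which respond to nitrate, 16 were measured. The median difference was -0.01, 8 had the higher mean with each line, none passed, and 14 intervals lay within 2-fold, beside 99.2% of all probe sets. Of 11 measured genes for autophagy and senescence none passed between the lines, with a median of -0.09. Against wild type 6 of these passed as lower with LBD37 and 4 with LBD38, where 11.3% and 8.66% of all probe sets did. The ubiquitin-like autophagy gene ATG8E (AT2G45170) read 7.61, 8.49 and 8.06 with LBD37 and 8.64, 8.59 and 8.86 with LBD38, against 9.40 ± 0.10 in wild type. Its LBD37 arrays were all below the LBD38 arrays, by -0.64 (-1.02 to -0.26, limma adjusted p = 0.267), and it passed without LBD37 replicate 2, with -0.86. PPDK, the pyruvate orthophosphate dikinase active in nitrogen remobilisation (AT4G15530), was at 9.79 ± 0.07 and 9.68 ± 0.23, against 10.69 ± 0.09 in wild type, with an interval between the lines of -0.11 to 0.33.

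Rapid stress and calcium genes had 6 measured members of 22 listed, and all 6 had the higher mean with LBD37. Over all 22746 probe sets 9991 did. The median difference was 0.48, none passed, and 3 intervals lay within 2-fold, beside 99.2% of all probe sets. STZ, a zinc finger repressor induced by many stresses (AT1G27730), read 11.05, 10.83 and 10.06 with LBD37 and 10.61, 10.31 and 9.53 with LBD38, against 8.97 ± 0.20 in wild type. CML38, a calmodulin-like protein gene (AT1G76650), read 8.10, 7.99 and 7.29 with LBD37 and 7.71, 7.43 and 6.41 with LBD38, against 6.23 ± 0.29. In both lines replicate 3 was the lowest array for these genes, and the lines overlapped. The list's median moved with single arrays, from 0.21 without LBD38 replicate 3 to 0.72 without LBD37 replicate 3. For jasmonate and ethylene defence, 5 members gave a median of 0.14, which became 1.05 when the dimmest 40% of probe sets were left out, with THI2.1 and JMT at differences of 0.14 and -0.22 beside PDF1.2 and PDF1.2b. THI2.1 and JMT lay below the lower quartile of signal on LBD37 arrays.

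Of the plastid-encoded transcripts none passed between the lines. Of 69 probe sets, 30 passed as higher than wild type with LBD37 and 51 with LBD38, against 7.21% and 9.26% of all probe sets, and none passed as lower. The rest did not pass. By array, their median stood 0.43, 0.59 and 0.29 above the wild-type mean with LBD37 and 0.53, 0.64 and 0.56 above it with LBD38. The wild-type arrays themselves lay from -0.23 to 0.22, and LBD37 replicate 3, the lowest overexpresser array, was just above that span. Of the 69 means 58 were lower with LBD37, where 56.1% of all probe sets were. An unadjusted p under 0.05 was found for 12, all lower with LBD37, where 8.31% of all probe sets were. The median difference between the lines was -0.12. The median was -0.07 without LBD37 replicate 3 and -0.21 without LBD37 replicate 2, a setting in which ndhE passed. The largest difference was that of ndhG, a subunit of the plastid NADH dehydrogenase-like complex, which read 7.53, 7.49 and 7.90 with LBD37 and 8.47, 8.08 and 8.21 with LBD38, against 7.21 ± 0.30 in wild type (-0.61, -1.0 to -0.22, limma adjusted p = 0.271). In contrast psaA, a core protein of photosystem I, passed as higher than wild type in each line, at 9.52 ± 0.17 and 9.77 ± 0.24 against 8.52 ± 0.44, with an interval between the lines of -0.61 to 0.11.

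Transcripts of the mitochondrial genome gave a median difference of 0.05 over 23 probe sets, which became -0.06 when the dimmest 40% of all probe sets were left out, and none passed between the lines. Without LBD37 replicate 2 a probe set for nad1 passed, with 0.42. Nuclear photosynthesis genes had 3 measured members. LHCB4.2, a light-harvesting protein of photosystem II (AT3G08940), read 10.02, 11.11 and 10.21 with LBD37 and 10.89, 10.69 and 11.14 with LBD38. LBD37 replicate 2 stood with the LBD38 arrays there, and the difference of -0.46 (-0.89 to -0.03, limma adjusted p = 0.338) became -0.79 and passed without it. RCA, the activase of Rubisco (AT2G39730), passed in the same refit, with -0.36.

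The markers of organs and of dividing cells gave no call between the lines. In whole seedlings fewer cells of a type and less RNA per cell cannot be told apart. Of 11 root markers 4 were measured, with a median difference of -0.20 and a range of -0.31 to 0.11. PYK10, an abundant root beta-glucosidase (AT3G09260), was at 11.32 ± 0.05 with LBD37 and 11.21 ± 0.22 with LBD38, and EXPA7, a root hair expansin (AT1G12560), was at 7.45 ± 0.26 and 7.76 ± 0.18. Of 8 leaf and stomatal markers 4 were measured, with differences of -0.11 to 0.07. The mitotic kinases AUR1 and AUR2 differed by -0.10 and -0.13. None of these passed, and every interval lay within 2-fold. Of all probe sets only 0.0484% passed and 99.2% had such an interval, so this does not set the markers apart. The reference gene GAPC2 was at 13.03 ± 0.01 and 12.98 ± 0.07.

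The remaining lists had 1 to 3 measured members each, and none of these members passed between the lines. BCAT4, an aminotransferase of methionine chain elongation in aliphatic glucosinolate synthesis (AT3G19710), was at 10.59 ± 0.31 with LBD37 and 10.97 ± 0.21 with LBD38, against 10.31 ± 0.06 in wild type, and differed by -0.38 (-0.66 to -0.09, limma adjusted p = 0.287). It passed without LBD37 replicate 2, with -0.54. The iron-deficiency peptide gene AT1G47400, of the IRON MAN family, was at 5.56 ± 0.56 and 5.97 ± 0.43, against 4.82 ± 0.04, and passed as higher than wild type in each line. Its difference between the lines was -0.41 (-0.91 to 0.09). SAG101, a lipase-like regulator of salicylate-linked defence (AT5G14930), was at 7.41 ± 0.25 and 7.39 ± 0.35, against 8.10 ± 0.05, with a difference of 0.01 (-0.31 to 0.33). The median differences were -0.09 for starch and sugar genes, 0.06 for cytokinin response regulators, 0.12 for auxin genes, -0.04 for cytosolic ribosomal proteins and -0.04 for the clock gene GI.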

How the data were processed

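Total RNA of whole seedlings was hybridised to 18 ATH1 arrays. The values are log2 signals, 1 per probe set and array, that the authors deposited after RMA, a tool named in the submitters' processing notes without a version. On culture the labels conflict, with liquid medium throughout in one place and agar followed by liquid in wells in another.

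The table held 22810 probe sets. The 64 controls were left out and 22746 were tested with limma 3.58.1 in R 4.3.3 (lmFit and eBayes on 6 group means, 12 residual degrees of freedom, prior 5.89), two-sided, with Benjamini-Hochberg adjustment and a threshold of 0.05. The scripts were tested on simulated data. Gene names came from the platform annotation, with 1 gene for 13513 probe sets, several for 503 and none for 8730, and 13484 of the first matched a TAIR10.1 locus. All other probe sets are called by their identifiers.

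The members, the naming rule and the 32 gene lists, 29 with a measured gene, were chosen with earlier results of these data known. Genes were named from a pool that held every probe set past the threshold between the lines, the 8 uncalled genes with the largest difference each way among those with unadjusted p under 0.05, arrays that did not overlap and 1 listed gene, and the 12 genes with the largest averaged change each way. The 12 each way had to pass in the averaged comparison and have 1 listed gene. All arrays of both lines also had to lie on the same side of all wild-type arrays. The pool also held list members with the largest difference or averaged change, LBD genes, and up to 3 depletion-changed genes each way. Every member of the first kind is described. Of the others some are described and the rest given by counts and ranges, and that selection was made with the values known. Alternatives were a replicate block, other scalings, filters, array weights, thresholds and leaving out each array.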

Additional observations from a re-analysis of the deposited data

Results flagged for a closer look

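Probe sets 252220_at and 246996_at moved in opposite directions from wild type in the lines, and the test of the difference between the lines passed for each. Whether either reports an overexpressed gene was not tested. Probe set 252220_at gave LBD37 minus LBD38 -6.81 on the log2 scale, with 6.18 ± 0.37 with LBD37, 12.99 ± 0.07 with LBD38 and 7.27 ± 0.09 in wild type. Probe set 246996_at gave 6.06, with 13.14 ± 0.23, 7.08 ± 0.26 and 8.0 ± 0.16. The 25S ribosomal RNA control, outside the probe sets tested, was 1.12 higher with LBD37, at 10.88 ± 0.42 against 9.76 ± 0.38, and the arrays of the lines did not overlap (exact permutation p = 0.1, n = 3 a line).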

How the results depend on the processing

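Between the lines, the count of 11 became 33 with array weights, 7 with only probe sets of 1 listed gene, 7 with only the compared groups in the fit, and 8 to 741 with 1 array left out. The averaged change gave 383, 3018 and 2477 probe sets when a 2-fold change, a threshold of 0.01 or a single listed gene was required. The same settings gave 385, 2137 and 2182 for LBD37 against wild type, with 2067 from only the compared groups and 2736 to 4822 with 1 array left out. They gave 430, 2462 and 2040 for LBD38 against wild type, with 2603 to 3539 with 1 array left out. Without wild-type replicate 1 or 2 the LBD37 count was 2742 or 2736, and without LBD38 replicate 1 the LBD38 count was 2603. Depletion gave 2290 with the 2-fold minimum and 6212 with 1-gene probe sets. Responsive probe sets with an interval within 2-fold numbered 150 among 1-gene probe sets. The mutants differed at 71, 241 and 272 probe sets under those 3 settings, at 1882 with array weights and at 1239 with only the compared groups. The 2-fold, stricter and 1-gene settings leave fewer probe sets by construction, and the cause of the other shifts was not tested.

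A replicate block gave 13 calls between the lines, 2 higher and 11 lower with LBD37, with all 11 calls among them. Same-numbered arrays of the lines deviated together with r of 0.04, -0.20 and 0.05 over probe sets, so the numbers were not taken to pair the samples. For single genes and lists under the alternatives other than leaving out wild type or requiring 1 listed gene, 1867 values kept their call or moved by less than the spread, 19 gained a call, 17 lost one, 5 list medians moved further, and no called value changed sign. Leaving out each wild-type array in turn also ended the 266795_at call. Signal over background limits the dimmest genes.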
